A study of Mus musculus with 6 samples.

Results

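Alveolar fibroblasts are the Tcf21-expressing interstitial cells of the distal lung. Tcf21 is a transcription factor of the embryonic lung mesenchyme, and Wnt2 is a mesenchymal ligand with a part in lung specification. Npnt (nephronectin) is a basement membrane ligand of the integrin encoded by Itga8. These cells lie beside the alveolar epithelium and are known as a source of growth factors, elastic matrix and lipid for it. Here they were picked from single-cell RNA sequencing of whole lungs at embryonic day 18.5, just before birth, as cells with at least 1 Tcf21 value and at least 2 for Wnt2, Limch1 and Npnt together. Smooth muscle, Dcn-high fibroblast, endothelial, epithelial and immune cells were kept out by Acta2 under 10, a Dcn, Lum and Col14a1 sum under 4, and no value of Pecam1, Cdh5, Epcam or Ptprc. The rule was read on values that the authors had adjusted for free RNA with SoupX. It found 2392 cells of the 16515 that had at least 700 genes and 0.5 to 10% mitochondrial values, out of 63659 barcodes in the whole series.

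Each genotype was represented by 1 whole-lung library. One is labelled as a heterozygous control (Cxcl12DsRed/+) and the other as a homozygous null (Cxcl12DsRed/DsRed). Both therefore carry at least 1 allele with the fluorescent reporter DsRed inserted into Cxcl12, the gene for a chemokine of arterial endothelium, and neither is wild type. With 1 library per genotype there was no replicate check, so no difference between the libraries was tested. All intervals are exact 95% intervals that cover counting error only, and genotype, embryo and library preparation cannot be told apart. Sex was held alike in 1 setting for gene levels only, in members with a Y-linked and no Xist count. Elsewhere it cannot be told apart from the others.

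Cxcl12 itself went against these labels. The library labelled control held 109 Cxcl12 UMIs (unique molecular identifiers, each standing for a captured transcript) over all barcodes, 1.27 CPM (the gene's UMIs scaled to a common total of all UMIs, as counts-per-million), and 5.19 CPM in its endothelial cells. The library labelled null held 19986 UMIs, 192 CPM, and 548 CPM in its endothelial cells. The names given to the deposited files carry the opposite genotypes to the sample labels. Groups are named here by label only, so a swap of the labels would turn every direction between the libraries. Every pair of values below gives the library labelled control first, and every ratio between libraries is labelled null over labelled control. Among the alveolar fibroblasts the library labelled control had 2 Cxcl12 UMIs (0.208 CPM, 0.0252 to 0.752) and the library labelled null 180 (18.3 CPM, 15.7 to 21.1). In the latter library 445 epithelial cells, whose median depth was 19247 UMIs against 8361.5 for the fibroblasts, held 82 Cxcl12 UMIs (8.29 CPM). Per cell this is about as many as in the 1142 fibroblasts. In the 610 immune cells there were 66 Cxcl12 UMIs (5.98 CPM), fewer per cell than in the fibroblasts. The SoupX-adjusted level was 8.02 CPM in the fibroblasts, 0.301 CPM in the epithelial cells and 0 CPM in the immune cells. How far free RNA gave the fibroblast level was not tested. The receptors Cxcr4 and Ackr3 were at 1.25 and 0.624 CPM in the library labelled control and 0.710 and 1.42 CPM in the library labelled null.

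The libraries also differed in depth, in sex and in the amount that SoupX removed. Alveolar fibroblasts had a median of 7335.5 UMIs in the library labelled control and 8361.5 in the library labelled null, with 9607911 and 9856368 UMIs in sum. SoupX had taken away 40.0% and 18.1% of these. Of the fibroblasts labelled control 935 had a Y-linked UMI without Xist and none had Xist alone, whereas of those labelled null 418 had a Y-linked UMI only and 536 Xist only. The library labelled null therefore held cells of both sexes. The 2 libraries shared 140 barcodes, of which 3 and 1 were alveolar fibroblasts.

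Alveolar fibroblasts made up 16.8% of the kept cells labelled control (1250 of 7448, 15.9 to 17.7%) and 12.6% of those labelled null (1142 of 9067, 11.9 to 13.3%). The share labelled null was lower by 4.19 percentage points. The gap was narrowest without 1 of the exclusions. The sum of Dcn, Lum and Col14a1 alone kept out 250 cells labelled control and 535 labelled null, and without that limit the shares were 20.1% and 18.5%. Acta2 alone kept out 32 and 156 cells, the Wnt2, Limch1 and Npnt sum 96 and 225, and Tcf21 68 and 43. Epcam alone kept out none in either library. The direction of the gap was the same under each of the other settings tried, including the rule read on unadjusted counts (14.5% and 9.86%) and on counts thinned to 2000 UMIs per cell (17.8% and 14.9%). A lower share of cells cannot be told apart from a higher number of other cells in the same suspension.

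**Figure D1:**
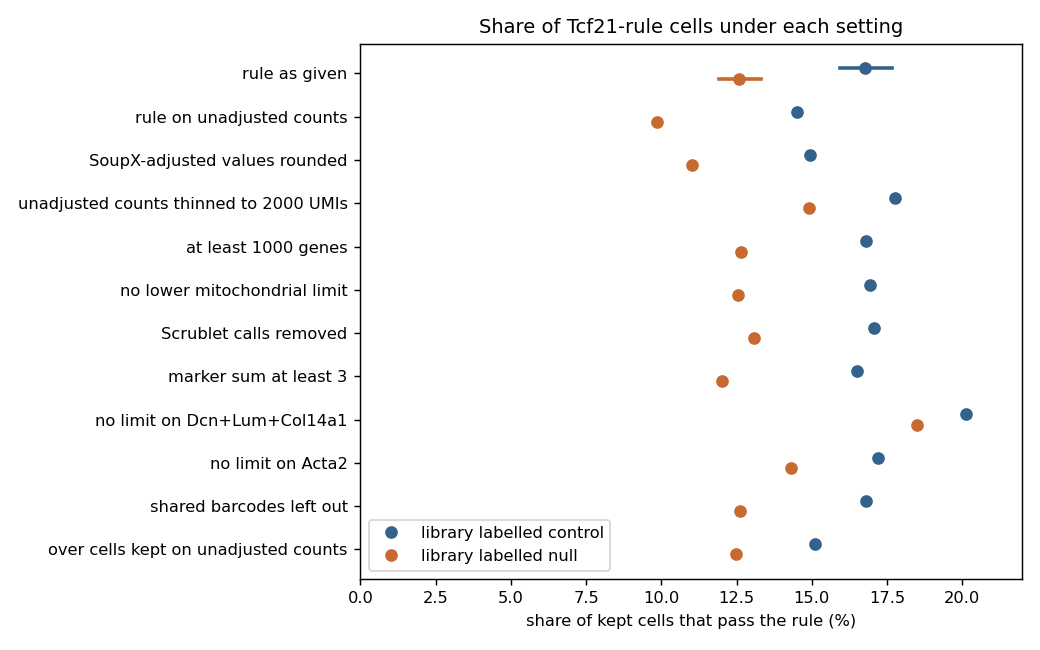
Share of kept cells that pass the alveolar fibroblast rule, in percent, under each setting (rows) in the library labelled control (blue) and labelled null (orange), with the exact 95% interval drawn for the rule as given. The share labelled null lies to the left in each row, and the gap is narrowest without the limit on Dcn, Lum and Col14a1 (20.1% and 18.5%).

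The rule genes describe the choice and not a finding. The median member had 23 unadjusted Tcf21 UMIs in the library labelled control and 24 in the library labelled null, and a Wnt2, Limch1 and Npnt sum of 15 in both. Acta2 had a median of 0 and 1 UMI. Across the Dcn, Lum and Col14a1 limit some genes were at near levels and others were not. The 378 members at an adjusted sum of 2 to 4 in the library labelled control had Col13a1 at 503 CPM, Itga8 at 181 CPM and Mfap4 at 12639 CPM. The 218 cells at a sum of 4 to 8, which the rule left out, had 454, 178 and 11942 CPM. In the library labelled null the same edge held 416 and 352 cells, with Col13a1 at 481 and 448 CPM and Mfap4 at 12603 and 11718 CPM. Inmt fell away across this edge, from 199 to 119 CPM in the library labelled control and from 191 to 83.9 CPM in the library labelled null, while Col1a1 was at 1355 inside and 1429.5 CPM outside in the former and at 1752 and 2334 CPM in the latter. At the lower edge of the marker sum Mfap4 was at 6391 and 5148 CPM just inside, in 49 and 95 cells, and at 4719 and 3259 CPM just outside. Inmt was at 58.6 and 9.34 CPM inside and 4.97 and 2.57 CPM outside.

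The cell type name was checked against genes that the rule did not use. Of 18 further alveolar fibroblast genes, 17 were at least 2-fold higher than in all other kept cells in both libraries. Over all genes of at least 50 CPM in the members of both libraries, 278 of 2620 (10.6%) were so. Of the genes of at least 50 CPM in the other kept cells of both libraries, 461 of 3065 (15%) were at least 2-fold lower in members. Summed, the 18 genes were at 21409 CPM in members labelled control and 20748 CPM in members labelled null, against 2105 and 2804 CPM in the other cells. The exception was Ces1d, a carboxylesterase, at 139 and 121 CPM against 88.4 and 56.4 CPM, which was also frequent in epithelial cells. These are descriptions of cells that were chosen by expression, and support no test. Markers of endothelial, epithelial and immune cells were low. The 12 endothelial genes summed to 115 and 114 CPM in members and 3295 and 4144 CPM elsewhere, the type II epithelial genes to 106 and 92.4 CPM against 9324 and 5063 CPM, and the immune genes to 136 and 67.7 CPM against 5048 and 3382 CPM. After adjustment the endothelial sum was 1.42 and 1.17 CPM and the type II sum 0 and 0.109 CPM. The type I epithelial list was less low, at 172 and 184 CPM against 1230 and 1143 CPM, and at 11.6 and 85.1 CPM after adjustment. Its median per member was above 0 in both libraries. In the library labelled control the median member had no UMI of the endothelial list, and in both libraries the median was 0 for the type II, airway, immune, red cell and mesothelial lists. Lists of other mesenchymal cells were not low. The adventitial fibroblast list was at 3812 and 4190 CPM in members and 1043 and 1795 CPM elsewhere, with Dpt, Clec3b and Gsn, 3 of its 5 genes at 50 CPM or more, at least 2-fold higher in members. The pericyte list was at 564 and 533 CPM against 565 and 544 CPM, and the smooth muscle list at 1243 and 1302 CPM against 1653 and 2018 CPM, with most of the members' sum from Mylk. The myofibroblast list was at 821 and 671 CPM against 1411 and 1419 CPM.

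**Figure D2:**
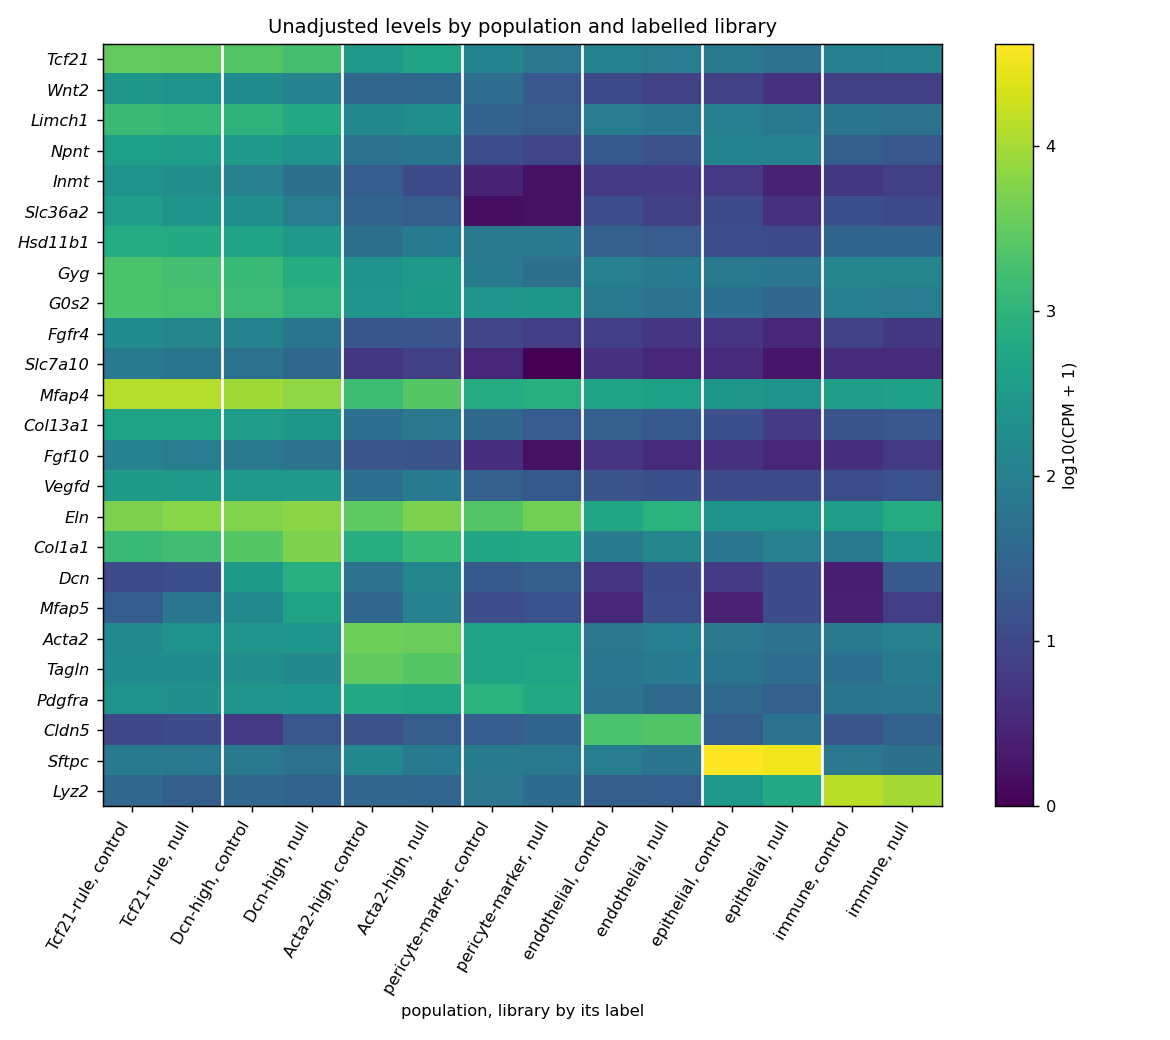
Unadjusted level, log10(CPM + 1), of 25 genes (rows) in the alveolar fibroblasts (Tcf21-rule) and 6 other marker-defined populations (columns), each in the library labelled control and labelled null. Tcf21, Mfap4, Gyg and G0s2 are highest in the Tcf21-rule columns and next highest in Dcn-high cells, while Cldn5, Sftpc and Lyz2 are highest in endothelial, epithelial and immune cells.

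The genes that stood out most over all other kept cells, by the lower of both libraries, were Inmt, Slc36a2, Prkg2, Hsd11b1, Fgfr4, Slc27a6, Scube2, Wnt2, Slc7a10, Enpep, Gyg, Mme, G0s2, Tcf21 and Spon1. Of these only Tcf21 and Wnt2 were in the rule. Inmt, which encodes an amine N-methyltransferase, was at 221 CPM (212 to 231) labelled control and 189 CPM (181 to 198) labelled null, 17.8-fold and 18.2-fold over the other cells. Hsd11b1, the enzyme that regenerates active glucocorticoid, was at 687 and 671 CPM, 14.2-fold and 11.5-fold over the rest. Among the other genes were those of transporters and of metabolism. Slc36a2 and Slc7a10, both amino acid transporters, were at 381 and 247 CPM and at 83.3 and 59.9 CPM. Gyg, the protein primer of glycogen, was at 2002 and 1719.7 CPM, with a UMI in 91.2% and 83.1% of members at 2000 UMIs per cell. G0s2, an inhibitor of the lipase encoded by Pnpla2, was at 2007 and 1867 CPM against 178 and 201 CPM elsewhere. The remaining genes were 8.94-fold to 13.5-fold over the other cells. For background, epithelial cells thinned in the same way had a Tcf21 UMI in 6.61% and 5.63%. The 98.9% and 98.2% of members follow from the rule, which asked for Tcf21.

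Ligands for the epithelium and vessels were part of the profile. Against the share of 10.6% over all genes, lists are given by how many of their genes at 50 CPM or more were enriched, that is at least 2-fold over the other cells in both libraries. The lists, here and below, overlap with the alveolar fibroblast genes used to check the name. Vegfd, Fgf10, Fgfr4, Meox2, Mfap4, Col13a1 and Itga8 are in both. Counts that hold them describe the profile and are not separate results. Of the 7 vascular and niche ligands 5 were: Vegfa, Vegfd, Angpt1, Slit2 and Slit3. Vegfd, a lymphatic growth factor, was at 332 CPM (321 to 344) and 314 CPM (303 to 325), and Angpt1, a ligand of the endothelial receptor Tek, at 123 and 125 CPM against 17.2 and 21.4 CPM elsewhere. The guidance ligand Slit2 was at 398 and 281 CPM against 54.6 and 41.2 CPM. Of 5 FGF pathway genes 4 were enriched. Fgf10, the ligand that drives epithelial branching, was at 111 and 87.1 CPM, and its relative Fgf7 was at 69.4 and 71.8 CPM. The receptors Fgfr3 and Fgfr4 were at 118 and 84.6 CPM and at 172 and 129 CPM. In the Wnt pathway 2 of 3 ligand genes were enriched in the members, Rspo1 and Wnt2, the latter through the rule, while Wnt5a was at 97.3 and 82.2 CPM against 69.7 and 98.9 CPM elsewhere. Neither of the 2 Wnt receptor, target and antagonist genes at 50 CPM or more was enriched, and Axin2, a target of the canonical pathway, was at 54.0 and 44.6 CPM. None of the 5 hedgehog pathway genes was enriched. In the BMP and TGF-beta list 1 of the 14 genes at 50 CPM or more was enriched, Bmp3, at 103 and 106 CPM, which is near the share over all genes.

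Of 14 transcription factors of the lung mesenchyme 4 were enriched, Tbx2, Meox2, Nr2f2 and the rule gene Tcf21. Meox2, a homeobox factor, stood out at 208 and 184 CPM against 15.9 and 20.9 CPM elsewhere. In the glucocorticoid response list 3 of 11 were enriched, Hsd11b1 and the factors Cebpb and Cebpd. The last was at 1959 and 2013 CPM against 804 and 834 CPM.

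Matrix and lipid genes gave a mixed picture. Read against the 10.6% over all genes, 4 of 12 genes of the elastic fibre list were enriched. The elastic fibre protein Mfap4 was at 12960.0 CPM (12888 to 13032) and 12744 CPM (12673 to 12814), and the crosslinking enzymes Lox and Loxl1 at 594 and 739 CPM and at 178 and 185 CPM. Elastin itself (Eln) was at 5028 and 6241 CPM, 3.52-fold and 2.37-fold over the other cells. Among collagens 4 of 14 were enriched, the 3 chains of collagen VI and Col13a1. Col13a1, a transmembrane collagen that marks alveolar fibroblasts, was at 484 and 482 CPM, while Col1a1 was at 1344 and 1583 CPM and reached 2506 and 5086 CPM in Dcn-high cells. Of the adhesion and basement membrane genes 7 of 15 were enriched, among them the rule gene Npnt. Fibronectin (Fn1) was at 3551 and 2502 CPM against 518 and 521 CPM elsewhere, Cdh11, a mesenchymal cadherin, at 539 and 564 CPM, and Itga8 at 171 and 165 CPM. In the lipid list 2 of 8 genes were enriched, Plin2 and the prostacyclin synthase gene Ptgis. Plin2, the lipid droplet coat protein, was at 441 and 399.5 CPM against 161 and 137 CPM, but Pparg, the adipogenic regulator, was at 9.58 and 10.7 CPM against 20.4 and 19.7 CPM.

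Few members had a UMI of the proliferation genes Mki67 or Top2a. At 2000 UMIs per cell, 2.40% of members labelled control (1.63 to 3.41%) and 2.11% of those labelled null (1.35 to 3.12%) had one. Of the other kept cells, the shares were 7.88% and 9.48%, and of endothelial cells 12.5% and 13.1%. Mesenchymal populations lay nearer to the members. Dcn-high cells were at 4.518% (2.55 to 7.34%) and 3.304% (2.17 to 4.803%), with intervals that overlap those of the members in both libraries. Acta2-high cells were at 5.92% and 5.996%, and pericyte-marker cells at 6.05% and 5.43%. Without thinning the members' shares were 5.76% and 5.17%. Immediate early genes, which cell dissociation can raise, were present in members and other cells alike, and none of the 16 dissociation and stress genes at 50 CPM or more was 2-fold over the other cells in both libraries. Their list summed to 12251 and 11608 CPM in members and 10598 and 10982 CPM elsewhere.

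Of 3 like mesenchymal populations, the Dcn-high cells (333 labelled control and 789 labelled null) had the fewest genes past 2-fold from the members. The Dcn, Lum and Col14a1 limit had kept them out of the members. Failing that limit alone were 250 and 535 cells, which met every other part of the member rule. Those without Upk3b are Dcn-high cells, so the likeness of this set to the members is partly built in. Only 2 of 2620 genes (0.0763%) were at least 2-fold higher in members than in Dcn-high cells in both libraries, and 68 of 2625 (2.59%) were lower. The genes higher in members were Inmt, at 101 and 50.4 CPM in the Dcn-high cells, and Apoc1, at 135 and 52.3 CPM. Tcf21 itself was at 2409 and 1833 CPM there, and Mfap4 at 9048 and 7077 CPM. The genes furthest below were of cartilage. Col2a1, the main cartilage collagen, was at 1.46 and 1.01 CPM in members and 1050.3 and 546 CPM in Dcn-high cells, with Col9a1, Col9a3 and Ucma behind it, so that set held cells with a cartilage profile as well. Acta2-high cells differed by more genes. There 202 genes (7.71%) were higher and 259 of 2938 (8.82%) lower in members, led by Slc36a2 above and by the muscle actins Actc1 and Actg2 below. Against cells with pericyte markers 225 genes (8.59%) were higher and 359 of 3071 (11.7%) lower in members. Cytl1, Col2a1 and Acan led the lower set, so this population also held cells with cartilage genes.

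Between the libraries few genes of the alveolar fibroblasts differed by 2-fold. Of 2892 genes of at least 50 CPM in 1 library, 17 (0.588%) were past 2-fold, 8 (0.277%) higher and 9 (0.311%) lower in the library labelled null. The median absolute log2 ratio was 0.12 and the median ratio 0.00. On SoupX-adjusted values 146 of 2876 genes (5.08%) were past 2-fold, 128 higher and 18 lower, and 13 of the 17 were among them. With the 50 CPM minimum on unadjusted values only, 16 (0.553% of the 2892) were past 2-fold in the same direction on both scales. Leaving aside Xist, Y-linked and haemoglobin genes, 7 were higher and 6 lower on both. None of the 18 alveolar fibroblast genes was past 2-fold, and their median log2 ratio was -0.12, or -0.43 on adjusted values. Their log2 ratios ran from -0.47 for Slc7a10 to 0.90 for Cxcl14 (71.0 and 133 CPM). Of the 31 lists with a gene compared, 6 held a gene past 2-fold, among them the red cell and sex-linked lists, and Mfap5 alone stood for both the adventitial and the elastic fibre list. In the 19 lists with at least 5 genes compared the median log2 ratio lay between -0.23 and 0.40. The highest of these medians was that of the imprinted and fetal growth genes, with Dlk1 and Meg3 past 2-fold of its 10 genes compared.

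**Figure D3:**
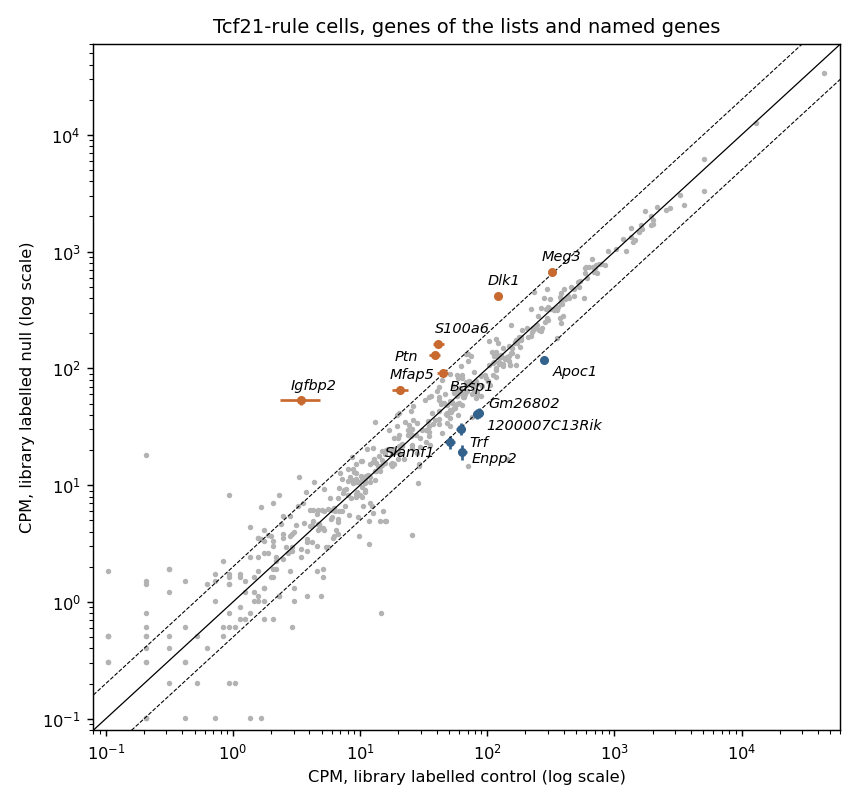
Level of each gene of the lists and each named gene in the alveolar fibroblasts of the library labelled control (horizontal) and labelled null (vertical), in CPM on log axes, with sex-linked genes left out. The solid line marks equal levels and the dashed lines 2-fold, and the named genes carry 95% counting intervals, with 7 above (orange) and 6 below (blue).

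The genes higher in the library labelled null were Igfbp2, S100a6, Dlk1, Ptn, Mfap5, Meg3 and Basp1. Igfbp2, a binding protein of insulin-like growth factors, was at 3.43 CPM (2.36 to 4.82) labelled control and 53.3 CPM (48.8 to 58.0) labelled null. S100a6, a calcium-binding protein, was at 41.2 and 162 CPM, and Ptn, a heparin-binding growth factor, at 38.7 and 130.1 CPM. Mfap5, a microfibril protein typical of adventitial fibroblasts, was at 20.7 and 65.0 CPM. Basp1, a membrane-bound signalling protein, was at 44.8 and 92.0 CPM. Dlk1, a transmembrane protein of fetal progenitors, was at 122 CPM (116 to 129.6) and 417 CPM (405 to 430.5). Meg3, a non-coding RNA of the same imprinted locus, was at 324 and 671 CPM, and the annotation places the small RNA genes Mir770 and Mir1906-1 inside it on the same strand. In the mm10 build, with GENCODE annotation, Dlk1 lies at chr12:109452823-109463336 on the plus strand and Meg3 77665 bases further on at chr12:109541001-109571726. Dlk1 is expressed from the paternal and Meg3 from the maternal allele. With members chosen on unadjusted counts the log2 ratio of Meg3 was 0.71 in place of 1.05 and that of Basp1 0.75 in place of 1.03, both under 2-fold. That of Igfbp2 was 2.89 in place of 3.77. Those of Dlk1, Mfap5 and S100a6 were 1.22, 1.13 and 1.66 in place of 1.77, 1.63 and 1.97. Without the Dcn, Lum and Col14a1 limit that of Dlk1 was 2.18, so its size depended on how members were picked.

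The genes lower in the library labelled null were Enpp2, Apoc1, Slamf1, Gm26802, Trf and 1200007C13Rik. Apoc1, an apolipoprotein, was at 278 CPM (268 to 289) labelled control and 119 CPM (112 to 126) labelled null. Its neighbour Apoe, 3449 bases away on chromosome 7, was at 5042 and 3329 CPM, a log2 ratio of -0.60 and not past 2-fold. Enpp2, the enzyme that makes lysophosphatidic acid, was at 63.5 and 19.1 CPM. Its log2 ratio of -1.71 became -0.57, under 2-fold, once the cells that Scrublet called doublets were removed, and was -2.47 on adjusted values and -2.59 in members with a Y-linked and no Xist UMI. Trf, transferrin, was at 61.8 and 30.4 CPM. The receptor gene Slamf1 was at 51.1 and 23.2 CPM, and the non-coding RNAs Gm26802 and 1200007C13Rik were at 86.1 and 41.3 CPM and at 83.2 and 41.1 CPM. Trf and 1200007C13Rik, both with a log2 ratio of -1.01, were at -0.78 and -0.89 with members chosen on unadjusted counts. Several pathway genes lay just short of 2-fold. Hhip, the hedgehog antagonist, was at 351 and 184 CPM (log2 -0.93), Lpl, lipoprotein lipase, at 75.4 and 38.8 CPM (log2 -0.95), and the microfibril gene Mfap2 at 232 and 448 CPM (log2 0.95). None of the 16 BMP and TGF-beta pathway genes compared was past 2-fold, with log2 ratios from -0.68 to 0.70 and a median of -0.12.

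Many of these gaps were also present in other cells of the lung. Igfbp2 had a log2 ratio of 3.77 in the alveolar fibroblasts, 2.89 in Dcn-high and 3.33 in Acta2-high cells. S100a6 had a log2 ratio of 1.97 in the alveolar fibroblasts, 2.22 in Acta2-high and 1.48 in endothelial cells, and Ptn 1.74, 1.75 and 2.04. For Mfap5 the ratios were 1.63, 1.71 and 2.07. Dlk1 and Meg3 showed a different spread. In Dcn-high cells their log2 ratios were 0.93 and 1.03, but in Acta2-high cells 0.12 and 0.00, and in pericyte-marker cells 0.00 and 0.17. Apoc1 was lower in the library labelled null in each of the 6 other populations, between -2.17 and -0.41 on the log2 scale, but on adjusted values it was higher by 2.22 in Acta2-high cells. Trf was at -1.57 in Dcn-high cells and at 0.02 in epithelial cells, where 42.5% and 44.1% of thinned cells had a UMI of it. S100a6 was far more abundant in immune cells, at 1896 and 1613 CPM, than in the fibroblasts. How far free RNA enters these ratios was not tested, and the adjusted log2 ratios in the fibroblasts were 2.72 for S100a6, 2.02 for Dlk1 and -2.74 for Trf. Adjustment took Trf in the fibroblasts to 4.66 and 0.273 CPM, so that most of its signal there was removed and its adjusted ratio is one of low levels.

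**Figure D4:**
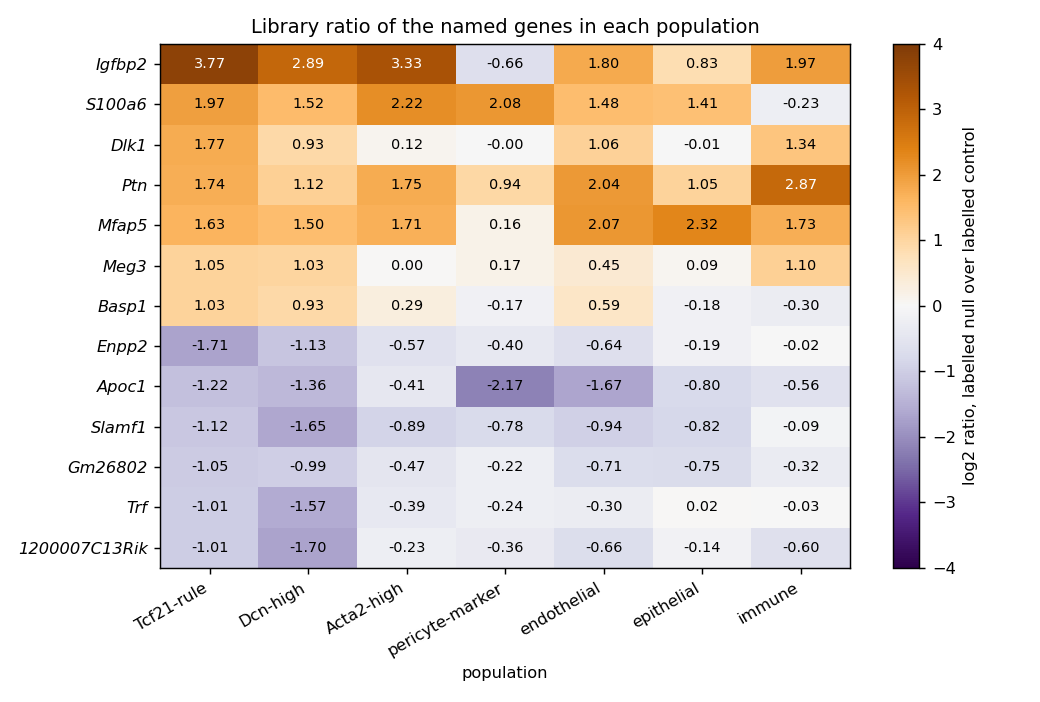
Log2 ratio of unadjusted CPM, library labelled null over labelled control, of the 13 named genes (rows) in the alveolar fibroblasts (Tcf21-rule) and 6 other populations (columns). Ptn is at 0.94 or more in every column, whereas Dlk1 and Meg3 are above 0.90 in Tcf21-rule and Dcn-high cells and near 0 in Acta2-high cells.

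Among the members, the genes with the most uneven counts from cell to cell, taken as variance over mean of thinned counts, were Malat1, Eln, Mfap4, Dlk1, Apoe, Meg3, Fos, Sftpc, Gsn and Fn1. Dlk1 also divided the cells that passed the rule. At 2000 UMIs per cell, 9.29% of members labelled control (116 of 1249, 7.73 to 11.0%) and 22.6% of those labelled null (258 of 1140, 20.2 to 25.2%) had a Dlk1 UMI. In endothelial cells, whose median depth before thinning was 7783 and 8655 UMIs, the shares were 2.998% and 3.88%, and the part of free RNA in them was not tested. Dcn-high cells had Dlk1 at 1180.4 and 2251 CPM. Without thinning the members' shares were 18.2% and 33.5%. The split was made after the values were seen, and compares cells of 1 library with each other. A gene was compared if it reached 50 CPM in members with or without Dlk1, in each library. Members with Dlk1 had 44 of 2833 genes (1.55%) at least 2-fold higher than members without it in both libraries, and 4 (0.141%) lower. Some of the 44 entered only through the smaller group, of 116 and 258 cells, in which they were high. Mfap5, for example, was at 86.6 against 13.6 CPM labelled control and at 214 against 23.3 CPM labelled null. Meg3 was at 1528 against 194 CPM labelled control and 2241 against 231 CPM labelled null. Of 10 other imprinted and fetal growth genes compared, 5 were higher in both libraries: Meg3, H19, Plagl1, Ndn and Nnat. Pdgfrb, the receptor that marks mural cells, was at 130.4 against 14.9 CPM and at 109 against 15.5 CPM. Of 14 elastic fibre and crosslinking genes compared, 4 were higher, Mfap5, Fbln1, Fbn2 and Loxl2, against 0 of 15 collagens and 1 of 17 adhesion and basement membrane genes. On the low side were Inmt, at 53.5 against 239 CPM and 59.3 against 225 CPM, together with Slc7a10, Rcan1 and Tchh. The 18 alveolar fibroblast genes had a median log2 ratio of -0.64 and -0.81, with Inmt and Slc7a10 past 2-fold lower and Cxcl14 higher. Whether members with Dlk1 are alveolar fibroblasts or other mesenchymal cells that pass the rule was not tested. Tcf21 was at 2298 against 3369 CPM and 2298 against 3250 CPM, but it is a rule gene and was bound to be present in both. Mfap4 was at 7259 against 13575 CPM and at 6324 against 14546 CPM, and Wnt2, a rule gene, at 189 against 281 CPM and at 69.1 against 267 CPM. Split without thinning, 33 of the 44 and 2 of the 4 genes were past 2-fold again. Scrublet had called 10.3% of the cells with Dlk1 labelled control doublets, against 3.18% of those without, and 2.71% against 1.81% in the library labelled null.

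**Figure D5:**
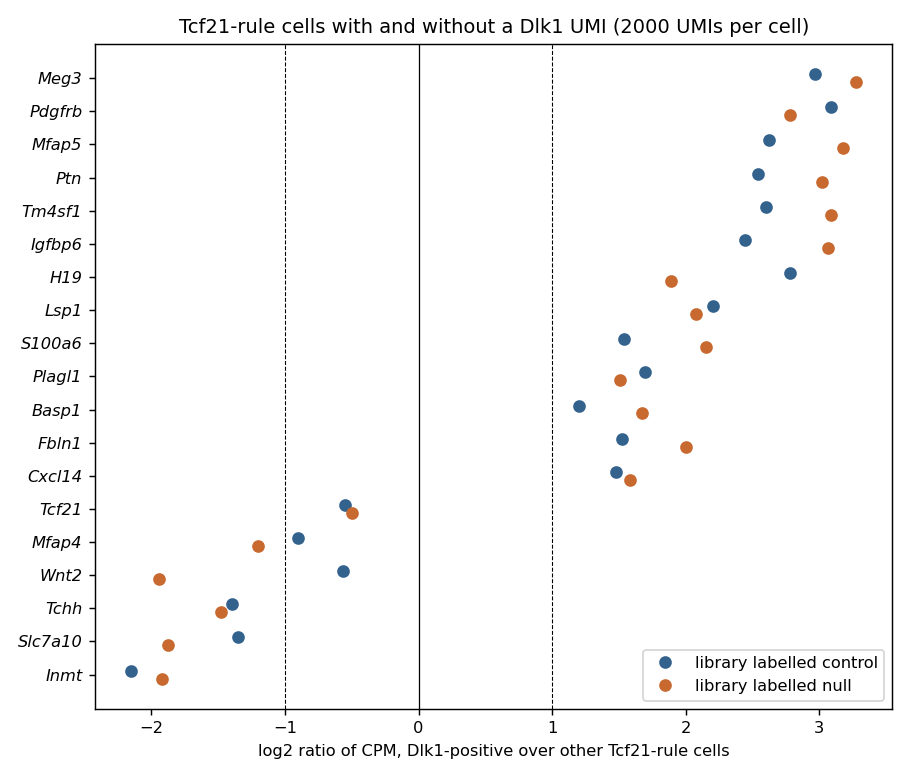
Log2 ratio of unadjusted CPM between alveolar fibroblasts with and without a Dlk1 UMI at 2000 UMIs per cell, for 19 genes (rows) in the library labelled control (blue) and labelled null (orange), with dashed lines at 2-fold. Meg3, Pdgfrb and Mfap5 lie above 2.5 in both libraries, and Inmt lies near -2.

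Several genes high beside Dlk1 also differed between the libraries. Meg3, Mfap5, Ptn, S100a6 and Basp1 were among the 44, and Igfbp2 was at 18.2 against 1.85 CPM labelled control and 212 against 8.71 CPM labelled null. Among members without a Dlk1 UMI the log2 ratio between the libraries was 0.25 for Meg3, 0.75 for Mfap5, 0.94 for Ptn and 0.64 for Basp1, each under 2-fold, but 1.40 for S100a6 and 1.97 for Igfbp2. Among members with a Dlk1 UMI the levels still differed between the libraries, with Mfap5 at 86.6 and 214 CPM, Ptn at 155 and 413 CPM and Basp1 at 92.0 and 199 CPM. Meg3 was at 1528 and 2241 CPM in those members, under 2-fold. Dlk1 itself differed between the libraries, so the split does not set these gaps apart from it. For Apoc1 the log2 ratio was -1.19 in members without a Dlk1 UMI. In members with one, Apoc1 was at 153 and 87.6 CPM, under 2-fold. Inmt split the members in the opposite sense. Members with an Inmt UMI, 19.9% and 15.2%, had 1 of 2721 genes (0.0368%) 2-fold higher in both libraries, Fabp4, a fatty acid binding protein, and 2 (0.0735%) lower, Dlk1 and Meg3. Split without thinning, Fabp4 was not past 2-fold, and the 2 lower genes were.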

How the data were processed

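Whole E18.5 mouse lungs were dissociated and loaded on the 10x Genomics 3′ v3 platform. The labels repeat a flow sort text for these libraries, although epithelial and immune cells were present. The deposited matrices hold UMI counts per gene and barcode (per the labels, Cell Ranger 3.1 and Seurat 3.2.2 on mm10), and the authors also deposited SoupX-adjusted matrices, which are expected counts that need not be whole. SoupX used Dcn, a gene of the rule, among its background genes. Members and gene lists were chosen with earlier results of these data known.

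Cells were chosen on the adjusted matrices. Levels are unadjusted UMIs summed over cells, scaled to counts-per-million (CPM), and log2 ratios add 0.5 CPM. Between the libraries, genes of at least 50 CPM in 1 library were compared and called at 2-fold, with no p-value, since each group was 1 library. Genes higher in members than in other cells were counted among those of at least 50 CPM in members of both libraries. Genes lower in members were counted among those of at least 50 CPM in the other cells of both libraries. In the splits of members by Dlk1 and by Inmt, genes were counted among those of at least 50 CPM in either group, in each library. Genes named between the libraries were the 10 largest ratios each way that passed 2-fold on both scales, with the 50 CPM minimum on unadjusted values only. Sex-linked, haemoglobin, mitochondrial and ribosomal genes were left out. Other named genes were the 15 highest over other kept cells, the 5 furthest above and below 3 like populations, the 10 most variable among members, and genes of the rule and the lists. Other populations were also set on adjusted values. Dcn-high cells had a Dcn, Lum and Col14a1 sum of at least 4, Acta2 under 10 and no Upk3b, and Acta2-high cells Acta2 of at least 10. Pericyte-marker cells had a Cspg4, Notch3 and Kcnj8 sum of at least 2, Tcf21 under 1 and neither of those limits passed. None of these 3 had Pecam1, Cdh5, Epcam or Ptprc. Endothelial, epithelial and immune cells had at least 2 of Pecam1 and Cdh5, of Epcam or of Ptprc, and none of the others. Shares of cells with a UMI were taken after thinning each cell to 2000 UMIs, which left out 1 member labelled control and 2 labelled null. Doublets were called with Scrublet in scanpy 1.11.5 (411 and 502 of the kept cells) and left in. The scripts (Python 3.11.15, numpy 2.4.6, scipy 1.17.1, pandas 2.3.3) were tested on simulated data. Adjusted values were not rounded. Intervals are Poisson for levels and Clopper-Pearson for shares.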

Additional observations from a re-analysis of the deposited data

How the results depend on the processing

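No paired analysis was possible because each group had 1 library. The share of alveolar fibroblasts, 16.8% labelled control and 12.6% labelled null, moved to 14.5% and 9.86% on unadjusted counts, 14.9% and 11.0% on rounded adjusted values, and 17.8% and 14.9% on counts thinned to 2000 UMIs. Settings chosen after seeing the data gave 20.1% and 18.5% without the Dcn, Lum and Col14a1 limit (a gap of -1.64 percentage points in place of -4.19), 14.3% labelled null without the Acta2 limit, and 15.1% labelled control over the cells kept on unadjusted counts. The share labelled null was lower in each setting. The 17 genes past 2-fold between the libraries became 146 on adjusted values, 10 with members chosen on unadjusted counts and 78 at a minimum of 10 CPM. They became 45 without the Dcn, Lum and Col14a1 limit and 27 in members with a Y-linked and no Xist UMI (935 and 418 cells), both added later. Adjustment turned 8 higher and 9 lower genes into 128 and 18, and the cause was not tested. The 13 named genes kept their direction in each of the 12 alternatives, and 8 to 13 of them were past 2-fold. Adjusted values were part of the naming rule, and the lower minimum and centring hardly touch a ratio, so their 13 of 13 is no sign of stability. In members with a Y-linked and no Xist UMI, 10 of the 13 named genes were past 2-fold. The log2 ratios of Apoc1, Slamf1 and 1200007C13Rik there were -0.94, -0.93 and -0.67. The 278 genes over the other kept cells became 462 at a minimum of 10 CPM, with all 278 among them. One library per genotype and the counting error of low genes set the limit on every comparison between libraries.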

Other observations

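The same rule read on the unadjusted counts of the flow-sorted libraries of the series passed 342 of 12726 kept cells in the E13.5 library (2.69%), but 38 or fewer in each of the later ones. These libraries came from another sort and were not adjusted, so their levels stand beside those of the whole lungs with no comparison. In the 342 cells at E13.5 Tcf21 was at 224 CPM, Wnt2 at 122 CPM and Mfap4 at 856 CPM. Dlk1 was at 722 CPM there, Meg3 at 1229 CPM, Ptn at 1531 CPM and Basp1 at 637 CPM. The other genes named as higher in the library labelled null were at low levels there. Igfbp2 was at 13.2 CPM, S100a6 at 48.6 CPM and Mfap5 at 3.81 CPM. Inmt had no UMI, Hsd11b1 was at 0.293 CPM and G0s2 at 23.7 CPM.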
